A study of Mus musculus with 6 samples.

Results

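Ly49 receptors are the lectin-like killer cell receptors encoded by the Klra genes, and they were followed here through every probe whose gene symbol on the array is one of Klra1 to Klra10. The rule gave 17 probes for 10 genes, out of 46643 probes on the array. The series profiled sorted NKp46+ cells of gut, skin and spleen, and compares these cells between tissues. The cells were sorted as CD45+ NKp46+ without CD3 (and, in the labels' spelling, NK11+) from intestinal lamina propria, skin or spleen of male RAG-2-KO mice on the C57BL/6 background, aged 12 weeks. All groups carry the RAG-2 deletion, so none of the mice makes T or B cells, and no RAG-2-sufficient group is present. Each tissue has 2 arrays, 6 in all, and nothing says whether the replicates came from separate mice or how many mice were pooled, so that the p-values rest on the spread of these arrays alone, part or all of which may be technical.

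Ly49 receptors sit on the surface of mouse natural killer (NK) cells as dimers and read classical MHC class I molecules on other cells. Inhibitory members carry a tyrosine-based motif that recruits the phosphatase SHP-1 and restrains the NK cell when self class I is present, while activating members lack that motif and signal through the adaptor DAP12. Each NK cell expresses its own combination of them. The genes lie in a cluster within the NK gene complex, copies resemble each other closely, and strains differ in which copies they hold. A transcript of one gene can therefore reach the probe of another, and each value below is that of a probe, not of 1 gene with certainty.

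The members share sequence before their starts as well as in their coding parts. Of the promoter windows in the RefSeq table (build GRCm38.p6), those of all 10 members were found, in 12 windows since 2 genes have a pair of starts. A search for the longest run held by 7 of the 10 member genes within the 250 bases before the start gave 2 overlapping runs of 11 bases, and the first in alphabetical order, GCAATTTCCTC, is shown. The number of genes was set after these windows had been compared. It lies in 18 of all 32851 windows (0.0548%) when both strands (GAGGAAATTGC) are searched. Of those 18 windows 9 belong to 8 Klra genes, Klra17 being the eighth. The lines below give 71 bases around the run, on the minus strand of chromosome 6, with the run in capitals. They are shown so that genes whose probes were detected can be set beside genes whose probes were not. Klra3, Klra4, Klra9 and Klra7 had detected probes.
Klra3 (chr6:130337627-130337697): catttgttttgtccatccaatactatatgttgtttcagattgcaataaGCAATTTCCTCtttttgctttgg
Klra4 (chr6:130067332-130067402): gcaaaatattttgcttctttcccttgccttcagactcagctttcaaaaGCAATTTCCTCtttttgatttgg
Klra9 (chr6:130193132-130193202): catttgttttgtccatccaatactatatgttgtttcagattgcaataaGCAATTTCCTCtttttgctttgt
Klra7 (chr6:130233393-130233463): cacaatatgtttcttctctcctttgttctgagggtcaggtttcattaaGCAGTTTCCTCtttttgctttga
Klra5, Klra6, Klra8 and Klra2 had none.
Klra5 (chr6:129913296-129913366): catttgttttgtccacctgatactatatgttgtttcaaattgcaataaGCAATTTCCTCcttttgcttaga
Klra6 (chr6:130027055-130027125): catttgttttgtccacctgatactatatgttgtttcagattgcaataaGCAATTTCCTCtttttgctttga
Klra8 (chr6:130129960-130130030): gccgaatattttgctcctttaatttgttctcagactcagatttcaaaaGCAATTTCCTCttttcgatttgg
Klra2 (chr6:131247415-131247485): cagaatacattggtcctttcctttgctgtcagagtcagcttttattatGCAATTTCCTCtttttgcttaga
The Klra7 window shown carries the run with 1 base changed, A4G, counted from 1 at the 5′ end of the run. The window of the other Klra7 start matches the run at best with 3 mismatches. The run started 23 to 147 bases before the listed starts of the 7 genes. Any run held by 7 of the 10 genes must fall in both sets, since 6 genes had a detected probe and 4 had none. That genes of both sets hold the run was thus fixed by the search and says nothing of detection. The windows of Klra1 and Klra10 match it at best with 4 mismatches, although both had a detected probe. A match is a description of letters and not of a site.

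On the arrays the members fell into 2 kinds of probe. A probe counts as detected where the deposited detection p-value is under 0.01. Of the 17 probes 8 were detected on all 6 arrays, 9 on none, and 0 on some arrays. The 8 detected probes belong to Klra1, Klra3, Klra4, Klra7, Klra9 and Klra10. The 9 others ranged in signal from -7.55 to 8.41, on arrays whose mean signal is 83.1. In 4 of the 6 genes with a detected probe, Klra1, Klra4, Klra9 and Klra10, a second probe of the same gene was detected on no array, so an undetected probe is reported as that and not as an unexpressed gene.

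**Figure D1:**
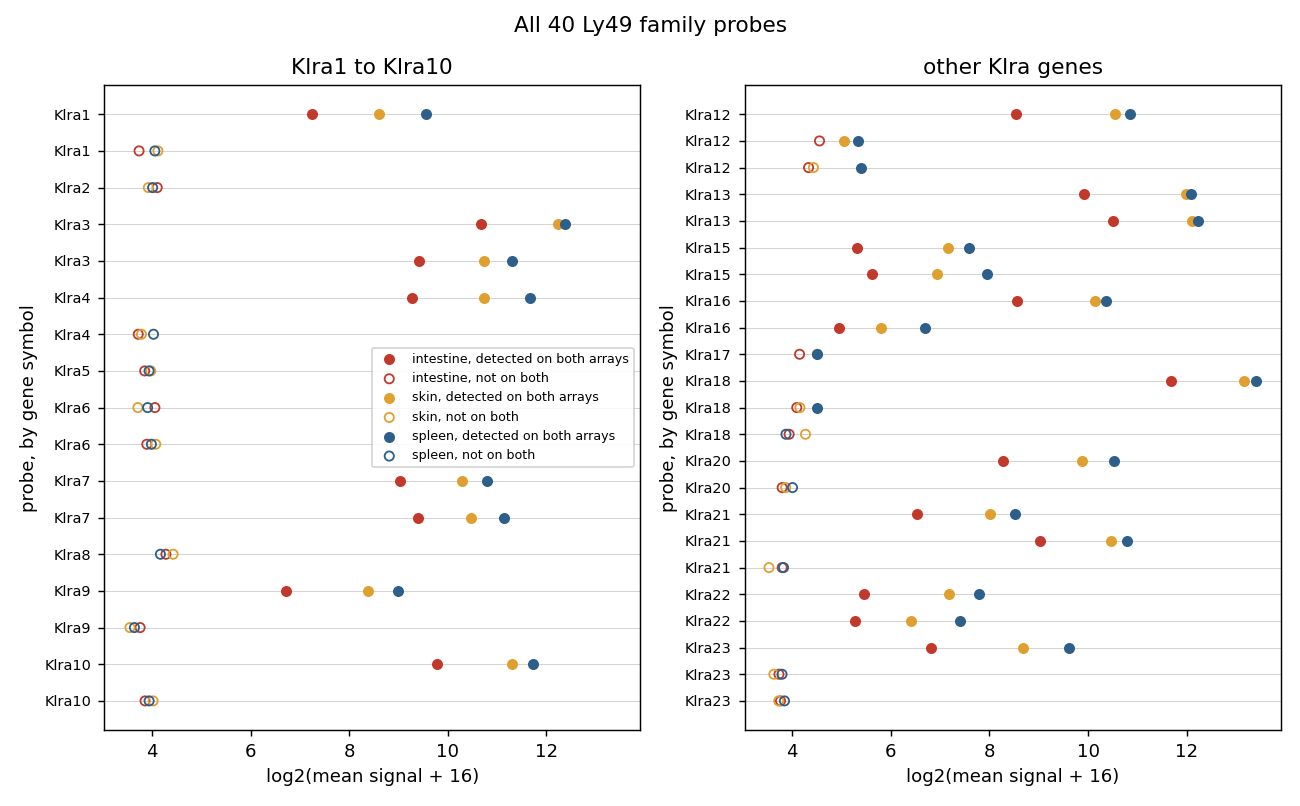
Each row is 1 of the 40 Ly49 family probes, with Klra1 to Klra10 on the left and the other Klra genes on the right. The horizontal axis is log2 of the mean deposited signal of the 2 arrays of a tissue plus 16, in red for intestine, yellow for skin and blue for spleen. Filled points mark tissues in which both arrays detected the probe, and 8 rows on the left are filled throughout, with intestine lowest and spleen highest in each.

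The detected probes were lowest in gut cells, between the other tissues in skin cells and highest in spleen cells, without exception. On every one of the 8 probes both intestine signals lay below both skin signals, and both skin signals below both spleen signals. Fold changes below come from log2(signal + 16) after quantile normalisation, which understates the change of dim probes, and are given as log2 differences ± the standard error of a limma fit with 2 arrays per tissue. Adjusted p-values are limma's, by Benjamini-Hochberg over the 18583 probes tested. All 8 detected members passed the detection filter and were tested, and the 9 undetected ones were not.

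In intestine against spleen all 8 probes were called lower, where 27.6% of all tested probes were called lower, 19.9% higher and 47.5% in either direction. Their log2 differences ran from -2.44 to -1.70 with a median of -1.92, against a median of -0.07 over all tested probes, and the highest adjusted p among them was 0.000225. In intestine against skin all 8 were again called lower, where 19.5% of all tested probes were called lower, 16.7% higher and 36.2% in either direction, with differences from -1.54 to -1.05 and a median of -1.34 against -0.05 over all probes. In skin against spleen 5 of the 8 were called lower and 3 did not pass, where 12.1% of all tested probes were called lower, 10.8% higher and 22.9% in either direction, and the differences ran from -1.002 to -0.37 with a median of -0.56 against -0.04. That count of 5 was 2 without skin replicate 1, 3 without skin replicate 2, 1 without spleen replicate 1 and 0 without spleen replicate 2, so the skin count depends on single arrays. Spleen replicate 2 stood apart in neutrophil genes, with S100a8 at 2.92 on spleen replicate 1 and 81.1 on spleen replicate 2, and S100a9 at -0.114 and 37.4 on the same arrays, while no intestine or skin array was above 1.27 for either gene. The part of this in the skin count was not tested. Intestine and skin share the spleen arrays in their comparisons with it, so those columns are not independent of each other. In sorted bulk samples, fewer cells that express a receptor and less RNA of it per cell cannot be told apart.

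**Figure D2:**
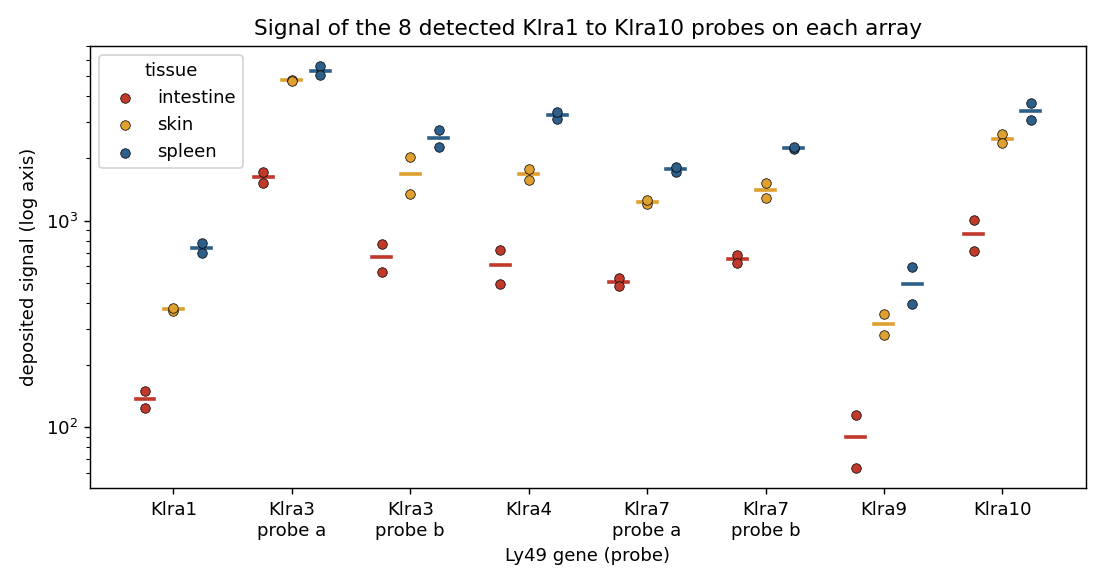
The vertical axis is the deposited signal on a log axis, and the horizontal axis lists the 8 detected probes of Klra1 to Klra10. Points are single arrays and bars the mean of 2, for intestine (red, left), skin (yellow) and spleen (blue, right). In each probe the 3 tissues stand apart in the same order.

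Among the inhibitory members, Klra1 (Ly49A, a receptor for H2-D molecules) gave signals of 149 and 123 on the intestine arrays, 366 and 379 on the skin arrays and 778 and 698 on the spleen arrays with its detected probe (array ID 106040338). The 3 tissues did not overlap, and the intestine arrays were the low ones. The intestine against spleen difference was -2.01 ± 0.14 (adjusted p = 4.00e-06), or 4.03-fold lower in intestine. The skin against spleen difference was -0.80 ± 0.14 (adjusted p = 0.0063), which no longer passed without spleen replicate 1 (adjusted p = 0.0907) or 2 (0.0545).

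Klra3 encodes Ly49C, an inhibitory receptor that recognises H2-K. Its probe a (array ID 101770048) gave 1723 and 1523 on the intestine arrays, 4814 and 4733 on the skin arrays and 5604 and 5056 on the spleen arrays. Its probe b (array ID 1980097) gave 770 and 567 on the intestine arrays, 2028 and 1345 on the skin arrays and 2747 and 2261 on the spleen arrays, and here the skin arrays differed more between themselves. Both probes put intestine far below the other tissues. The skin mean was 89.5% of the spleen mean on probe a and 67.4% on probe b. Against spleen, intestine was lower by 3.7-fold on probe a (-1.89 ± 0.14, adjusted p = 4.43e-06) and by 3.58-fold on probe b (-1.84 ± 0.21, adjusted p = 9.17e-05). Skin against spleen did not pass on either, at -0.37 ± 0.14 (adjusted p = 0.0692) and -0.59 ± 0.21 (adjusted p = 0.0668). With the replicate number, which is also the slide, as a block, probe b passed (adjusted p = 0.0160). With median scaling the intestine against spleen difference of probe a was -1.14, still called, and its skin difference had the other sign, 0.16.

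Klra7 encodes Ly49G, another inhibitory receptor. Probe a (array ID 102810088) gave 529 and 481 on the intestine arrays, 1207 and 1264 on the skin arrays and 1729 and 1814 on the spleen arrays. Probe b (array ID 1780184) gave 684 and 625 on the intestine arrays, 1294 and 1525 on the skin arrays and 2229 and 2281 on the spleen arrays. Both probes rank the tissues alike with no overlap, and their intestine against spleen differences were nearly equal, -1.71 ± 0.13 and -1.70 ± 0.14. These were the smallest of the 8 in this comparison, yet both passed (adjusted p = 7.45e-06 and 9.56e-06). In skin against spleen the probes fell by 0.49 (adjusted p = 0.0276) and 0.65 (adjusted p = 0.012) on the log2 scale, calls that ended under 7 of 15 and 4 of 16 alternative settings.

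Klra9 encodes Ly49I, an inhibitory receptor that also recognises H2-K. Its detected probe (array ID 101500161) gave 115 and 63.4 on the intestine arrays, 353 and 279 on the skin arrays and 597 and 395 on the spleen arrays. The replicates of intestine and of spleen differed by a larger ratio than on the other detected probes, although the tissues did not overlap. Intestine was 3.87-fold lower than spleen (-1.95 ± 0.26, adjusted p = 0.000225). Skin against spleen was at -0.41 ± 0.26 with an interval of -0.99 to 0.17 (95%), and did not pass (adjusted p = 0.262).

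Klra10 (Ly49J) gave 1005 and 712 on the intestine arrays, 2616 and 2377 on the skin arrays and 3730 and 3058 on the spleen arrays on its detected probe (array ID 3360280). Its 3 tissues did not overlap. The intestine against spleen difference was -2.02 ± 0.17 (adjusted p = 1.20e-05), a 4.06-fold lower level, and with median scaling it was -1.42, still called. The skin against spleen difference of -0.53 ± 0.17 passed narrowly (adjusted p = 0.0476), and passed under 7 of 16 alternatives, the adjusted p ranging from 0.0188 to 0.673.

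Klra4 encodes Ly49D, the activating member with a detected probe, which pairs with DAP12. Its detected probe (array ID 101400091) gave 721 and 493 on the intestine arrays, 1581 and 1772 on the skin arrays and 3104 and 3371 on the spleen arrays. Spleen arrays stood well above skin arrays and skin arrays above intestine arrays. Intestine was 5.43-fold lower than spleen (-2.44 ± 0.18, interval -2.83 to -2.05, adjusted p = 4.48e-06), and with median scaling the difference was -1.85, still called. Skin was 2-fold lower than spleen (-1.002 ± 0.18, interval -1.39 to -0.61, adjusted p = 0.00584), and this call ended without skin replicate 1 (adjusted p = 0.0501) or spleen replicate 2 (0.0749). These are the largest of the 8 differences in both comparisons with spleen, while in intestine against skin its -1.44 ± 0.18 lay within the range of the other probes. Whether the fall of Klra4 differs from that of the others was not tested.

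In intestine against skin, where 2 non-lymphoid organs are compared, Klra9 (-1.54 ± 0.26, adjusted p = 0.00121), Klra3 probe a (-1.51 ± 0.14, adjusted p = 2.33e-05) and Klra10 (-1.49 ± 0.17, adjusted p = 0.000105) differed most. Klra7 probe b differed least (-1.05 ± 0.14, adjusted p = 0.000256), a 2.07-fold lower level. Klra1 was at -1.21 ± 0.14 (adjusted p = 0.000128) and Klra3 probe b at -1.25 ± 0.21 (adjusted p = 0.00125). All 8 calls of this comparison held under every alternative run in which the probe entered the fit.

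**Figure D3:**
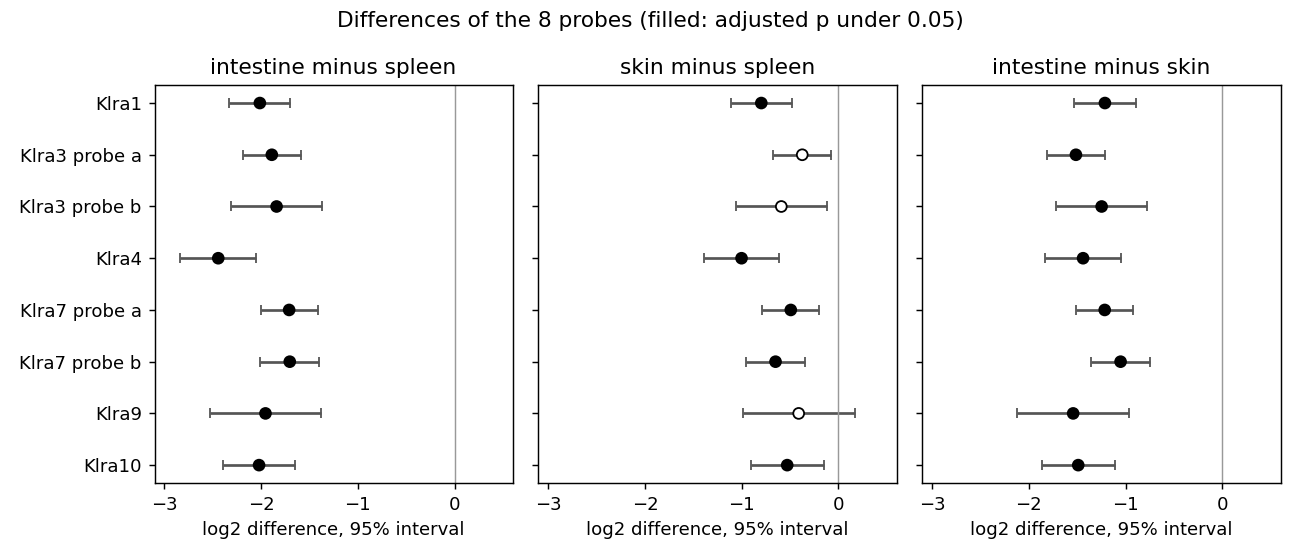
The horizontal axes give log2 differences with their 95% intervals for the 8 detected probes, in intestine minus spleen (left), skin minus spleen (middle) and intestine minus skin (right). Filled points have an adjusted p under 0.05, which holds for all 8 probes in the outer panels and 5 in the middle one.

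The array names place replicate 1 of each tissue on 1 slide and replicate 2 on another. Within slide 1 the intestine against spleen differences of the 8 probes ran from -2.10 to -1.63, and within slide 2 from -2.79 to -1.74. The skin against spleen differences ran from -0.95 to -0.42 and from -1.05 to -0.28, and in intestine against skin from -1.51 to -0.93 and from -1.74 to -1.11. Every probe was lower on both slides in all 3 comparisons.

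The genes without a detected probe were Klra2, Klra5, Klra6 and Klra8. Klra2 (Ly49B), a member known from myeloid cells, had 1 probe with signals of 1.02 and 1.43 on the intestine arrays, -0.520 and -1.07 on the skin arrays and -0.262 and 0.549 on the spleen arrays. Klra5 (Ly49E), which is known from fetal NK cells, had 1 probe, at -3.84 and 0.724 on the intestine arrays, -0.487 and -0.0690 on the skin arrays and -1.26 and -0.0360 on the spleen arrays. Klra6 (Ly49F) had 2 probes that ranged from -4.53 to 2.41. Klra8 (Ly49H), the activating receptor that recognises cells infected with mouse cytomegalovirus, had 1 probe, at 3.45 and 3.46 on the intestine arrays, 8.41 and 2.65 on the skin arrays and 2.55 and 1.47 on the spleen arrays. Its lowest detection p-value, 0.0224 on 1 skin array, was also the lowest of the 9 undetected probes, and the other 8 had none under 0.127. No fold is given for these genes, since all tissues are below the threshold.

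The array also holds 23 probes for 10 further Klra symbols, several of which name genes described in other mouse strains. Of these probes 14 were detected on all 6 arrays, 5 on none and 4 on some. The C57BL/6J gene table used here for names lists no gene under the symbols Klra12, Klra15, Klra18, Klra20 and Klra21, gives Klra22 as another name of Klra1, and lists Klra13 as a transcribed pseudogene (Ly49M). Yet a probe labelled Klra18 gave 3282 and 3259 on the intestine arrays, 9303 and 9098 on the skin arrays and 11063 and 10648 on the spleen arrays, and its 2 other probes were at most at 6.63. The 2 probes labelled Klra13 gave 908 and 987 on the intestine arrays, 3887 and 4191 on the skin arrays and 4238 and 4428 on the spleen arrays, and 1288 and 1604 on the intestine arrays, 4076 and 4689 on the skin arrays and 4358 and 5254 on the spleen arrays. A probe labelled Klra20 gave 283 and 308 on the intestine arrays, 870 and 968 on the skin arrays and 1402 and 1532 on the spleen arrays, while its other probe was detected on no array. The labels of single probes in this family are therefore not taken as the identity of the transcript.

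Of those 14 probes 13 had tissues that did not overlap, in the same order as the members. All 14 were called lower in intestine against spleen, from -2.50 to -1.38 (median -1.91), where 27.6% of all tested probes were called lower. All 14 were also called lower in intestine against skin, from -1.97 to -0.75 (median -1.49), where 19.5% of all tested probes were. In skin against spleen 6 were called lower and 8 did not pass, with a median of -0.37, where 12.1% of all tested probes were called lower. The probe labelled Klra23 had the lowest intestine against spleen difference, -2.50 ± 0.15 (adjusted p = 1.40e-06), close to that of Klra4. Probes of 1 symbol did not always agree in skin against spleen, where those labelled Klra15 were at -0.17 ± 0.13 and -0.76 ± 0.15, and those labelled Klra22 at -0.37 ± 0.14 and -0.72 ± 0.14. Klra17 (Ly49Q), known from plasmacytoid dendritic cells and other myeloid cells, had 1 probe, at 4.67 and -1.19 on the intestine arrays, 4.23 and 9.28 on the skin arrays and 7.31 and 6.24 on the spleen arrays, was detected on both spleen arrays and 1 skin array only, and passed in no comparison. The other partly detected probes were labelled Klra12 (-0.64 and -0.87 in intestine against spleen) and Klra18 (-0.44). They were dim, were called lower in that comparison and did not pass in intestine against skin (adjusted p = 0.129, 0.936 and 0.951).

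Among the genes that Ly49 receptors signal through, calls in either direction were about as frequent as over all genes in both intestine comparisons. Of 16 listed signalling partners 15 were tested, and in intestine against spleen 6 were called lower, 1 higher and 8 did not pass, with a median of -0.18. Over all genes, taking the brightest probe of each, 27.8% were called lower, 20.5% higher and 48.2% in either direction, with a median of -0.04. Tyrobp, the gene of DAP12, gave signals of 1102 and 1393 on the intestine arrays, 2069 and 2052 on the skin arrays and 2786 and 2703 on the spleen arrays. Tyrobp was thus lowest in intestine with no overlap (-1.15 ± 0.16, adjusted p = 0.000266), while skin against spleen did not pass (-0.44, adjusted p = 0.0678). Fyn, a Src-family kinase, was lower in intestine (-1.07 ± 0.14, adjusted p = 0.000221) and in skin (-1.41, adjusted p = 0.000487) than in spleen on its brightest probe. A dimmer Fyn probe detected on all 6 arrays did not pass in intestine (-0.20, adjusted p = 0.296) or skin (-0.30, adjusted p = 0.169). Zap70, a kinase that binds phosphorylated adaptors, went the other way in intestine (0.84 ± 0.15, adjusted p = 0.00158). Ptpn6, which encodes SHP-1, did not pass in intestine against spleen (0.31 ± 0.19, adjusted p = 0.190) and was called higher in skin than in spleen (0.62, adjusted p = 0.0380). In skin against spleen 1 partner was called lower, 1 higher and 13 did not pass, against 10.8% lower, 12.3% higher and 23.1% in either direction over all genes. In intestine against skin 6 were called lower, 0 higher and 9 did not pass, against 22.1% lower, 16% higher and 38.1% in either direction over all genes. Lat2, a linker for activation, was the lowest of these (-0.95 ± 0.16, adjusted p = 0.00110), and Arrb2, a beta-arrestin gene, was also lower (-0.57 ± 0.17, adjusted p = 0.0289).

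The class I genes that encode Ly49 ligands, and B2m, their light chain, did not pass in any comparison. Of 5 listed genes 4 were tested. In intestine against spleen B2m was at -0.09 ± 0.14 (adjusted p = 0.590) and the probe labelled H2-L at -0.10 ± 0.15 (adjusted p = 0.608). H2-D1 was at 0.08 ± 0.15 (adjusted p = 0.685) and H2-K1 at 0.22 ± 0.23 (adjusted p = 0.447). These depend on the scaling, since the deposited signals of B2m, before quantile normalisation, were 21511 and 25024 on the intestine arrays, 21615 and 20370 on the skin arrays and 13285 and 16743 on the spleen arrays. On that scale both spleen arrays lay below the intestine and skin arrays, which overlapped. The probe of a class I gene may also meet transcripts of other class I genes. Labels of class I probes, H2-L among them, are therefore not taken as the identity of the transcript.

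A further list held Klrg1 and other receptor genes of the NK gene complex, in which the Klra genes lie. Among the genes of this list, Klrg1 apart from the complex, more were called lower than higher in intestine against spleen. Of 15 tested, 10 were called lower, 3 higher and 2 did not pass in intestine against spleen (median -1.03), against 27.8% lower and 20.5% higher over all genes. Klrb1f, an NKR-P1 receptor gene, was at -2.47 ± 0.13 (adjusted p = 9.83e-07) and Klrg1 at -2.21 ± 0.14 (adjusted p = 1.82e-06), whereas Cd69 (3.24 ± 0.21, adjusted p = 2.25e-06) and Klrb1b (2.05 ± 0.14, adjusted p = 3.84e-06) were higher in intestine. Skin against spleen gave 10 lower, 1 higher and 4 not passing (median -0.54), against 10.8% lower and 12.3% higher over all genes, with Klrc2 at -1.35 (adjusted p = 0.00116), Klrc1 at -1.17 (adjusted p = 0.0136) and Cd69 at 1.93 (adjusted p = 0.000652). The dimmer Cd69 probes did not pass in skin against spleen (1.22, adjusted p = 0.0522, and 0.23, adjusted p = 0.364). In intestine against skin 7 were lower, 3 higher and 5 did not pass (median -0.30), against 22.1% lower and 16% higher over all genes. Genes of NK maturation had 11 of 13 tested members called lower in intestine against spleen, 0 higher and 2 not passing (median -1.42), against the same 27.8% lower and 20.5% higher over all genes. S1pr5, an egress receptor gene, was at -5.24 ± 0.16 (adjusted p = 1.43e-07), Cma1, a mast cell type protease gene, at -3.98 ± 0.20 and Ly6c1, a surface antigen gene of mature NK cells, at -3.85 ± 0.18. That list had 8 lower, 1 higher and 4 not passing in skin against spleen (median -0.54), against 10.8% lower and 12.3% higher over all genes. It had 11 lower, 0 higher and 2 not passing in intestine against skin (median -1.15), against 22.1% lower and 16% higher. The gene called higher in skin than in spleen was Cd27 (0.62, adjusted p = 0.0157), which was lower in intestine than in skin (-0.86, adjusted p = 0.00101). These counts take no account of whether a gene rises or falls as NK cells mature.

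Of 17 tested transcription factors linked to Ly49 expression or NK development, 5 were called higher, 6 lower and 6 did not pass in intestine against spleen (median -0.27), where 20.5% of all genes were called higher and 27.8% lower, so that calls in both directions are found over the whole array too. In skin against spleen 1 was higher, 6 were lower and 10 did not pass (median -0.28), against 12.3% higher and 10.8% lower over all genes. In intestine against skin 7 were higher, 4 lower and 6 did not pass (median 0.27), against 16% higher and 22.1% lower. Tcf7, which encodes TCF-1, a factor needed for normal expression of Ly49A, was higher in intestine than in spleen (0.68 ± 0.13, adjusted p = 0.00213) and did not pass in skin against spleen (0.20, adjusted p = 0.287). Ikzf2 (Helios, 2.91 ± 0.21, adjusted p = 4.51e-06) and Nfil3 (1.89 ± 0.14, adjusted p = 4.70e-06), a factor of NK development, were higher in intestine, while Zeb2, a factor of late NK maturation, was lower (-2.23 ± 0.14, adjusted p = 2.53e-06). Id2, a factor all innate lymphoid cells need, did not pass there (-0.34 ± 0.14, adjusted p = 0.0663) and was lower in skin than in spleen (-0.95, adjusted p = 0.00249), as was Lef1, a relative of TCF-1 (-1.10, adjusted p = 0.00369). Ikzf3, an Ikaros family gene, was higher in intestine than in skin on its brightest probe (1.25 ± 0.15, adjusted p = 0.000172). Its other probes disagreed. A probe detected on all 6 arrays did not pass (-0.11, adjusted p = 0.576), and a dim probe detected on 3 arrays was higher (0.72, adjusted p = 0.0208).

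**Figure D4:**
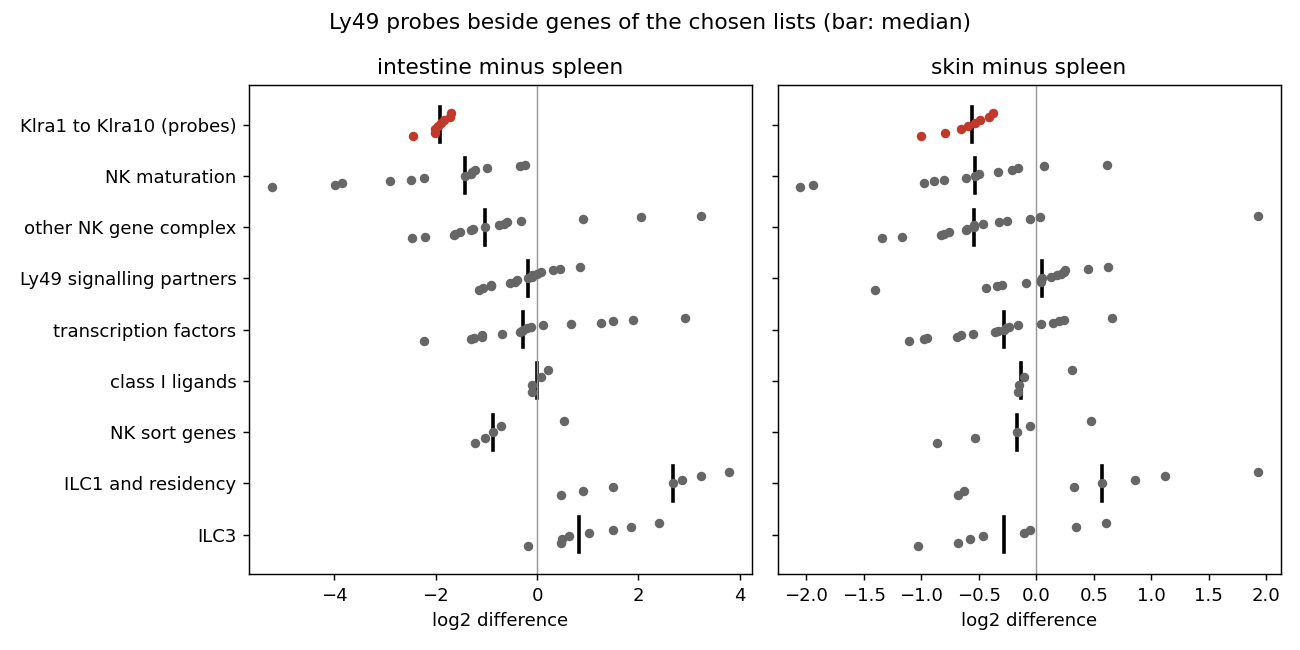
Points are log2 differences of the 8 detected Klra1 to Klra10 probes (red) and of the tested genes of each chosen list (grey, 1 probe per gene), for intestine minus spleen (left) and skin minus spleen (right), with the median as a black bar. Height within a row only spreads the points by rank. The red points lie between -2.44 and -1.70 on the left and between -1.002 and -0.37 on the right.

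The genes behind the sort and markers of other cells were measured beside these results. Ncr1, which encodes NKp46, had signals of 10.8 and 14.7 on the intestine arrays, 33.1 and 32.4 on the skin arrays and 88.2 and 52.9 on the spleen arrays, so it was lower in intestine than in spleen (-1.23 ± 0.18, adjusted p = 0.000473), as was the NK1.1 gene Klrb1c (-1.03 ± 0.15, adjusted p = 0.000334). For Ptprc, which encodes CD45, the probes disagreed. The brightest was lower in intestine (-0.71 ± 0.15, adjusted p = 0.00419) and in skin (-0.86, adjusted p = 0.00646) than in spleen, whereas another probe detected on all 6 arrays did not pass in intestine (-0.14, adjusted p = 0.415) or skin (0.17, adjusted p = 0.383). Cd3e was detected on no array.

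Lists of markers of other cells are given against the same shares over all genes, 20.5% higher and 27.8% lower in intestine against spleen and 12.3% higher and 10.8% lower in skin against spleen. Of 8 tested ILC3 genes 7 were higher, 0 lower and 1 did not pass in intestine against spleen, and 1 was higher, 3 lower and 4 did not pass in skin against spleen. Their summed signals over the list of 14 were 2512 to 2528 in intestine, 480 to 527 in skin and 923 to 972 in spleen, and 4 genes, among them Il22 and Il23r, were detected on no array. Of 7 tested genes of ILC1 and tissue residency 6 were higher, 0 lower and 1 did not pass in intestine against spleen, and 3 were higher, 2 lower and 2 did not pass in skin against spleen, with sums of 35554 to 40842 in intestine, 19696 to 20668 in skin and 9625 to 10681 in spleen.

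Of the T cell list 5 of 10 genes, Cd3e, Cd4, Cd5, Cd6 and Themis, were detected on no array, and the list summed to 848 to 1032 in intestine, 732 to 828 in skin and 716 to 822 in spleen. Of the 5 tested, 2 were higher, 1 lower and 2 did not pass in intestine against spleen, and 1 was higher, 0 lower and 4 did not pass in skin against spleen. Cd3g, a chain of the T cell receptor complex, gave 312 and 597 on the intestine arrays, 54.6 and 59.4 on the skin arrays and 109 and 81.4 on the spleen arrays. It was thus high in intestine alone (2.35 ± 0.25 against spleen, adjusted p = 6.04e-05), while Cd3d, another chain, did not pass (-0.10 ± 0.17, adjusted p = 0.635). Cd8a, the other gene called higher, gave 6.05 and 23.3 on the intestine arrays, at most 1.18 on the skin arrays and at most -1.07 on the spleen arrays. Cd8b1 was lower in intestine (-0.43 ± 0.13, adjusted p = 0.0241) and higher in skin (0.71, adjusted p = 0.00807) than in spleen on its brightest probe.

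Macrophage, monocyte and dendritic cell markers, whose cells can express Klra2 and Klra17, had 6 of 9 tested members lower, 0 higher and 3 not passing in each comparison with spleen, and 7 of 16, including Csf1r and Cd14, were detected on no array. Their sums were 78.0 to 93.9 in intestine, 136 to 164 in skin and 431 to 471 in spleen, of which Fcgr2b, an Fc receptor gene, made up 10.04 and 6.88 on the intestine arrays, 47.5 and 45.9 on the skin arrays and 260 and 266 on the spleen arrays. The spleen sums are thus mostly those of 1 gene. Lyz2, C1qa, C1qb, C1qc and Adgre1 were the others called lower, and their brightest probes were detected on the 2 spleen arrays only. Lyz2 gave 26.5 and 54.4 on the spleen arrays and at most 8.27 elsewhere. C1qb gave 19.1 and 21.1 on the spleen arrays and at most 1.49 elsewhere. Further probes of Lyz2 and Adgre1 were detected on no array. All 5 tested erythroid genes were lower in each comparison with spleen, with sums of 687 to 1105 in intestine, 779 to 1015 in skin and 11701 to 17603 in spleen. Neutrophil genes, of which 1 of 8 was tested, summed to 17.5 to 17.9 in intestine, 1.92 to 16.5 in skin and 18.4 to 159 in spleen, the last on spleen replicate 2. The B and plasma cell list had 4 of 8 genes detected on no array, the gut epithelium list 5 of 8 and the keratinocyte list 6 of 8. Of 3 tested B and plasma cell genes, 1 was higher (Cd79b), 1 lower (Cd22) and 1 did not pass in intestine against spleen. In skin against spleen 0 were higher, 2 lower and 1 did not pass. Cd79b gave 18.8 and 35.2 on the intestine arrays, 1.48 and 3.93 on the skin arrays and 12.4 and 12.4 on the spleen arrays. In the other lists only Krt18 and Krt10 were tested. Krt18 passed in neither comparison with spleen, and Krt10 only in intestine, where it was lower (-0.39, adjusted p = 0.0485). The part of other cell types in the Ly49 differences was not tested.

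Outside the family, the 8 genes whose profile over the 6 arrays lay nearest to the median profile of the detected members, by root mean square distance of centred log2 values, were Fam117a, Cd52, Gzmm, Rab22a, C230043G09Rik, Txndc5, Cep97 and Thap2. The distances ran from 0.0804 for Fam117a to 0.122 for Thap2, while those of the members' own probes ran from 0.0804 for Klra10 to 0.273 for Klra4. Gzmm, a granzyme gene of NK cells, gave 19.6 and 18.1 on the intestine arrays, 73.5 and 66.7 on the skin arrays and 178 and 157 on the spleen arrays. Cd52, a small surface glycoprotein gene of lymphocytes, gave 1034 and 728 on the intestine arrays, 2058 and 2116 on the skin arrays and 3147 and 2942 on the spleen arrays. With 6 arrays of 3 tissues, which share 2 slides and their scaling, likeness of this kind is a description only.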

How the data were processed

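NKp46+ cells of 3 tissues were profiled on Illumina mouse BeadChips after RNA amplification and biotin labelling, per the labels' protocols, with BeadStudio (version 1.5.1.3) as the software, per the submitters' processing notes. Per the file headers, the deposited values are an average bead signal (intensity) and a detection p-value for each of 46643 probes. Their values show subtracted background and 1 mean signal of 83.1 on every array. The method the authors used for either step is not stated in the labels or headers. A second deposited table holds the same intensities unscaled, with means of 50.9 to 82.7 in intestine, 43.7 to 53.4 in skin and 131 to 137 in spleen, and between 15196 and 18530 probes were detected per array, most in spleen. The number of arrays limits the precision.

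An offset of 16 was added, log2 taken and arrays quantile normalised (limma 3.58.1, R 4.3.3). A probe was kept (18583 were) where both arrays of some tissue had a detection p under 0.01, and lmFit and eBayes were run on all 6 arrays (3 residual degrees of freedom, prior of 6.92), with a threshold of 0.05 after Benjamini-Hochberg adjustment. The fit was tested on simulated data. For gene lists the kept probe with the highest mean stood for a gene. Replicate numbers match the slides in the array names, and replicate deviations correlated at 0.107 to 0.193 between tissues over probes.

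The members and lists were chosen with earlier results of these data known. Genes were named by rule: all Klra1 to Klra10 probes, up to 3 called members per list and comparison, with the largest differences (where none was called, the 2 brightest), the sort genes and the 8 nearest profiles. Of the other Klra probes only some are given with values. For some lists and comparisons only counts are given. Zap70, Ptpn6 in intestine, H2-D1, H2-K1, Klrb1b in spleen comparisons, Id2 in intestine, Tcf7, Cd27 and the genes named from marker lists of other cells were added after their values were seen. Gene names come from the RefSeq table (GRCm38.p6). Probe sequences were not used here. Groups of 2 allow no test for outlying samples.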

Additional observations from a re-analysis of the deposited data

How the results depend on the processing

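Of the Klra1 to Klra10 probes, all 8 were called lower in intestine against spleen and in intestine against skin under each of the 10 alternative settings and each of the 6 fits that left out 1 array, except that with 1 probe per gene 6 of them entered. Their log2 differences ranged from -2.66 to -1.14 and from -1.89 to -0.84. Skin against spleen depended on the settings. The 5 lower calls became 3 with an offset of 4, 2 with median scaling, 3 without a filter, and 0 to 7 when 1 array was left out, with 0 without spleen replicate 2 and 7 without either intestine array. Klra9 passed there under none of 16 alternatives, and Klra3 probe a reversed with median scaling (0.16). The replicate block changed no call of a member other than that of Klra3 probe b given above, and put the counts over the whole array at 9483, 5114 and 7218 in intestine against spleen, skin against spleen and intestine against skin, against 8822, 4253 and 6727 without it. Probes called over the whole array in skin against spleen numbered 4253, but 2470 with an offset of 4, 2277 without a filter and 536 (without spleen replicate 2) to 6458 (without either intestine array) on leaving out 1 array, and in intestine against spleen 8822, but 5097 (without spleen replicate 1) to 9105. The share of calls that were higher, 41.9% in intestine against spleen, was 56.6% with median scaling and 24.7% with the deposited scaling alone. In skin against spleen 47.0% were higher, against 65.2% and 30.7%, and in intestine against skin 46.0%, against 51.5% and 33.6%. Deposited scaling alone moved the median of all probes in intestine against spleen to -0.26. The cause of these changes was not tested. Signal over background was lowest in skin and intestine, which limits dim probes there.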
